A study of Mus musculus with 44 samples.

Results

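The AsiSI break at Romo1 is a single prey site on mouse chromosome 2, followed here through the junctions it formed with a fixed bait break on the same chromosome. High-throughput genome-wide translocation sequencing (HTGTS) reads out from the bait break and records, for each joined molecule, the genome position and strand at which the joined DNA (the prey) begins. The site comprised every junction on chromosome 2 within 500 bp of position 156144264 in the mm10 build, which gave 2851 of the 148726 deposited junctions of 32 libraries. It was picked because it received the most junctions of any AsiSI motif in 6 of these libraries, those of the DMSO arm of the CK-666 experiment, so its junction number there is a description.

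The cells were mouse embryonic fibroblasts (MEFs) of strain C57BL/6, all labelled WT. The treatment labels give 4-hydroxytamoxifen (4OHT) for all of them, although the titles of the Cas9 libraries do not name it. AsiSI-MEFs gave 26 libraries. These cells carry the restriction enzyme AsiSI fused to part of the estrogen receptor, so that 4OHT sends it into the nucleus, where it cuts its motif throughout the genome. Which cells were used comes from the methods. The 26 libraries formed 4 experiments: the ARP2/3 inhibitor CK-666 (6 libraries) against DMSO (6), the N-WASP inhibitor wiskostatin (2) against DMSO (2), the polymerisation-deficient nuclear actin R62D-NLS (2) against empty vector (2), and the DNA-PKcs inhibitor NU7441 (3) against DMSO (3). The other 6 libraries came, according to the methods, from MEFs without AsiSI in which Cas9 cut the same bait locus, 3 with CK-666 and 3 with DMSO. They served as a comparison for the site. The junctions over 10 kb from the bait, to which all shares refer, numbered between 335 and 17479 per AsiSI-MEF library and between 2376 and 4731 per Cas9 library. Replicates are separately labelled libraries that the sources used here do not tie to separate animals, so p-values measure the spread between these libraries.

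A double-strand break leaves 2 DNA ends that cells mostly rejoin to each other, either by non-homologous end joining, which ligates ends after little trimming and depends on the DNA-PK kinase, or by alternative routes that anneal short stretches of shared bases. When 2 breaks exist at the same time, ends of different breaks can be joined instead, which makes a deletion, an inversion or a translocation. AsiSI cuts the motif GCGATCGC and leaves 3′ overhangs of 2 bases (AT) at every cut, so ends from any pair of AsiSI cuts can anneal, and an exact join rebuilds the motif. The ARP2/3 complex and its activators of the WASP family nucleate branched actin filaments, and the study asked whether nuclear actin assembly and DNA-PK act on the joining of distant breaks.

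The 4 sequences below are shown because they define what an exact join at this site looks like, and their capitals mark the AsiSI motif. The Romo1 site lies on the plus strand at chr2:156144249-156144278 and the bait site at chr2:13271306-13271335 (mm10). The HTGTS read runs along the plus strand of the bait and crosses into the prey, so the bait always contributes the bases to the left of its motif. The right end of the Romo1 break continues along the plus strand and the left end along the minus strand.
Romo1 site: cgtcgagctgaGCGATCGCagcggagaacg
bait site: accctgtcccaGCGATCGCgcaggcgcaca
bait joined to the right end, motif restored: accctgtcccaGCGATCGCagcggagaacg
bait joined to the left end, motif restored: accctgtcccaGCGATCGCtcagctcgacg
The sequence with the right end occurred in 164 junction reads of the 26 AsiSI-MEF libraries and the sequence with the left end in 231, and each was present in all 26 libraries.

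The motif at 156144260 to 156144267 lies in the first exon, in the 5′ untranslated region, of 4 of 4 annotated transcripts of Romo1 (ENSMUSG00000067847, plus strand, 156144039 to 156145797), whose starts lie between 24 and 225 bp from the cut. Romo1 encodes a small protein of the inner mitochondrial membrane that modulates reactive oxygen species. The left end of the break faces Nfs1 (ENSMUSG00000027618, minus strand), the cysteine desulfurase of iron-sulfur cluster assembly, which starts 78 bp from the cut and is transcribed away from it. The right end holds the body of Romo1, beyond which Rbm39 (ENSMUSG00000027620, minus strand), a splicing factor, ends. Gm28036 (ENSMUSG00000098950), which overlaps part of Nfs1, was the only other annotated gene within 20 kb. The bait motif lies in the first exon of Rsu1, on the minus strand, and the cuts in the first exons of these genes are 142.873 Mb apart. The nearest other AsiSI motif was 935 kb away. There were 1109 AsiSI motifs in the genome, 84 of them on chromosome 2.

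The junctions clustered tightly on the cut. Of the 2851, 2231 (78.3%) began within 50 bp of it, 405 began between 51 and 100 bp away and 215 farther out. The farthest included junctions lay at 493 and 482 bp and the nearest excluded ones at 504 and 505 bp. Another 102 lay beyond the window within 2 kb of the cut, and 61 lay between 2 and 10 kb.

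In the 6 DMSO libraries that chose the site, Romo1 took between 2.59% and 4.77% of the junctions (median 2.86%) and ranked first among AsiSI sites in all 6. In the 20 AsiSI-MEF libraries that the choice did not use, it took between 1.00% and 4.16% (median 2.75%, mean 2.72% ± 0.907, SD, n = 20), a total of 2224 junctions. It ranked first in 12 of these 20 libraries and no lower than 7, and first in 3 of the 7 other control libraries. Next in total over the same 20 libraries came Arhgap11a with 1850 junctions, named here after its value was seen, and Nup214 with 1768. Romo1 was higher than each of them in 16 of the 20. Counted within 50 bp of the cut instead, Romo1 ranked 2 over these libraries. The lead over the next sites was thus not present in every library.

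The level varied between sequencing runs. Among control libraries the share was 3.16% and 4.77% in run A, 2.59% to 2.89% in the 4 libraries of run B, 1.76% to 2.16% in the 3 libraries of run C, and 2.36% and 3.24% in run F. Run D and run E held 1 control library each, at 3.21% and 3.61%. Both libraries of each treated and control pair came from the same run, so the comparisons below are within runs.

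**Figure D1:**
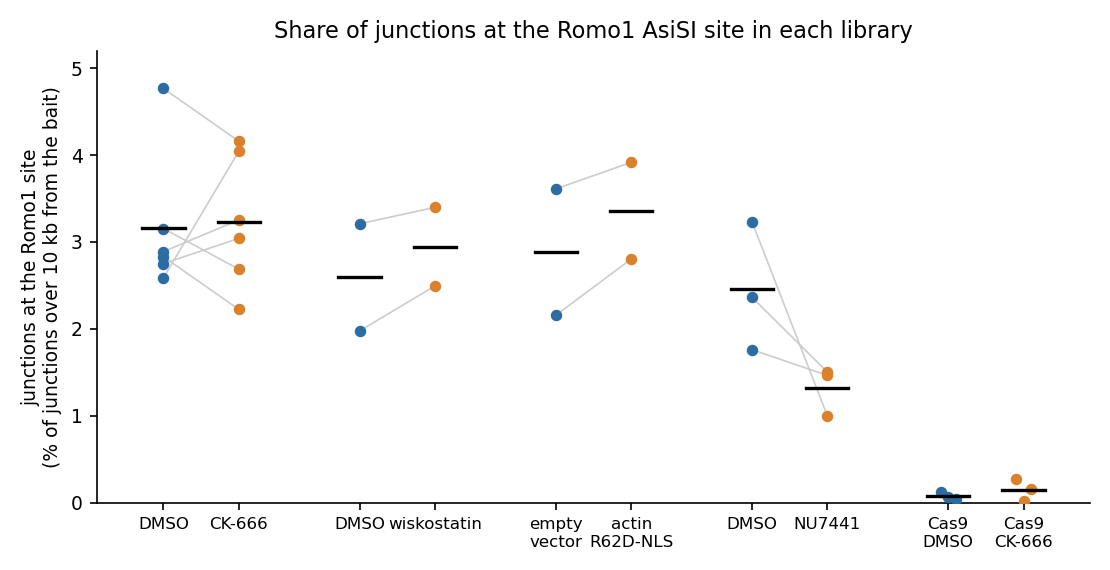
Share of junctions at the Romo1 AsiSI site (percent of junctions over 10 kb from the bait, vertical axis) in each library of each group; points are libraries, black bars are group means, and grey lines join libraries of the same replicate number. All 3 NU7441 libraries lie below all 3 of their controls, the other AsiSI-MEF groups overlap their controls, and the Cas9 libraries lie between 0.0246% and 0.275%.

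CK-666, which blocks the actin nucleator ARP2/3, left the share of the Romo1 site among all junctions near that of DMSO. The 6 CK-666 libraries ranged from 2.22% to 4.16% (median 3.15%) and the 6 DMSO libraries from 2.59% to 4.77% (median 2.86%). The groups overlapped, with 3 pairs higher under CK-666 and 3 lower. The log2 fold change was 0.04 (SE 0.17), a fold of 1.03 with a 95% interval of 0.811 to 1.30 (limma voom across 274 AsiSI sites, adjusted p = 0.975), and the exact two-sided sign-flip test over the 6 pairs gave p = 0.875. No AsiSI site was called under CK-666 (0% of 274 at an adjusted p under 0.05, 13 at an unadjusted p under 0.05, 0 called also by limma without voom weights). The shares are relative to each library's own junctions, so a loss of junctions that touched all sites alike would not appear in them. The DMSO libraries of this comparison are those that chose the site.

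Wiskostatin and the actin mutant gave similar pictures from 2 pairs each. With wiskostatin, which targets the ARP2/3 activator N-WASP, the share was 2.49% and 3.40% against 1.98% and 3.21% in the paired DMSO libraries. Actin R62D-NLS gave 2.80% and 3.92% against 2.16% and 3.61% with empty vector. The treated library was higher in 2 of 2 pairs in both experiments, but the groups overlapped. The folds were 1.16 (95% interval 0.797 to 1.68, adjusted p = 0.900) and 1.20 (0.806 to 1.79, adjusted p = 0.967) by limma voom. In both experiments 0% of the 274 sites were called, with 21 and 16 sites at an unadjusted p under 0.05. Both intervals include lower as well as higher shares.

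NU7441, which inhibits the kinase of non-homologous end joining, was followed by a lower share of the Romo1 site. It held 1.504%, 1.00% and 1.47% of the junctions in the 3 NU7441 libraries (29, 13 and 93 junctions) and 2.36%, 3.24% and 1.76% in their DMSO libraries (108, 79 and 308 junctions). The 95% Wilson intervals of the treated libraries were 1.05% to 2.15%, 0.585% to 1.70% and 1.20% to 1.79%, and cover counting error only. Every treated library was below every control library, which was also so for 6.2% of the 274 sites. The log2 fold change was -0.75 (SE 0.25), a fold of 0.595 with a 95% interval of 0.422 to 0.840 (limma voom, adjusted p = 0.0465). The exact two-sided sign-flip test over 3 pairs gave p = 0.25, the smallest value that 3 pairs allow. With a residual spread drawn from all sites, 10.9% of the 274 sites were called, of which 22 were higher and 8 lower.

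In this fit most AsiSI sites lay higher under NU7441, but most of the deep ones lay lower, as Romo1 did. The median log2 fold change of all 274 sites was 0.35, and 76 sites lay below 0. The NU7441 libraries were shallower, with 1300 to 6348 junctions against 2442 to 17479 in their controls. The fit adds a constant to each count, which weighs more at shallow sites in shallow libraries. Its part in these fold changes was not tested. The mean share at all AsiSI sites together was 59.4% with NU7441 and 63.3% with DMSO. Of the 25 other tested sites on chromosome 2, the median was 0.41, 6 lay below 0, 4 were called higher and 1 was called lower. Of the 10 other sites with the most junctions in the control libraries, 8 lay below 0, with a median of -0.52, and 2 were called lower and 0 higher. The called sites were Mex3a (log2 fold change -1.10, SE 0.28, limma voom, adjusted p = 0.00925) and Samhd1 (-0.86, SE 0.29, adjusted p = 0.0468), a dNTP-degrading enzyme named here after its value was seen. Dnmt3b gave -0.61 (adjusted p = 0.151) and Nup214 -0.18 (adjusted p = 0.690), neither past the threshold. These 10 sites were picked by their junctions in libraries that include the NU7441 controls, so their median is a description. The change at Romo1 differed from its change under CK-666 by -0.78 (SE 0.30, limma voom, adjusted p over the 274 sites = 0.150), from that under wiskostatin by -0.96 (adjusted p = 0.343) and from that under actin R62D-NLS by -1.01 (adjusted p = 0.211). These differences do not pass the threshold after adjustment over all sites. The call for NU7441 itself was close to the threshold. It was lost in 8 alternative settings and in 2 of the fits that left out 1 pair. Without the pairing of replicates the log2 fold change was -0.79 (limma voom, adjusted p = 0.113), and within 50 bp of the cut -0.64 (adjusted p = 0.0701). When each position and strand was counted 1 time per library it was -0.52 (limma voom, adjusted p = 0.260). Without replicate 2 it was -0.40 (adjusted p = 0.170), while the fold stayed below 1 in all of these.

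**Figure D2:**
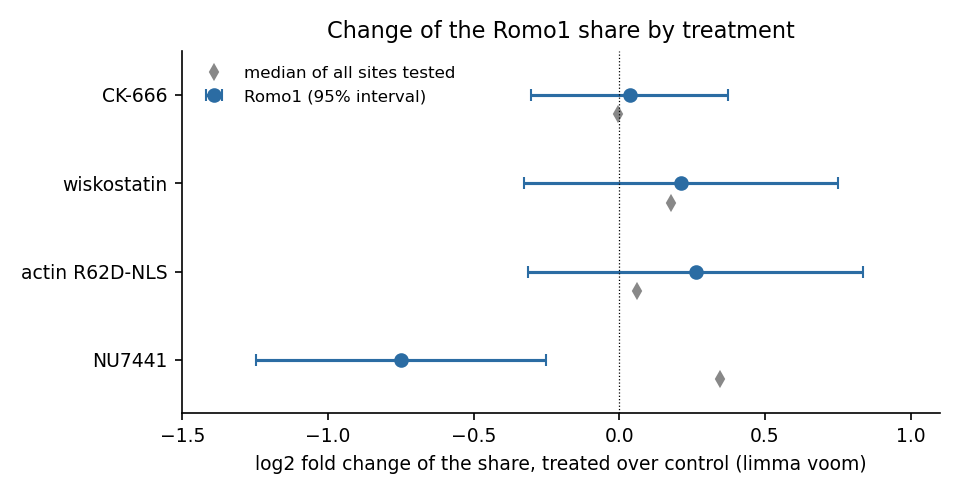
Log2 fold change of the Romo1 share, treated over control, with its 95% interval (limma voom, blue), and the median log2 fold change of all 274 AsiSI sites tested (grey diamonds). The interval for NU7441 lies below 0, from -1.25 to -0.25, and the intervals of the other 3 treatments include 0. The median of all sites under NU7441 is 0.35 and that of the 10 deepest other sites, not drawn, is -0.52. The NU7441 libraries were shallower than their controls, and the part of depth in the median of all sites was not tested.

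Most joined ends had lost few bases. In the 26 AsiSI-MEF libraries, 2827 junctions lay at the site, and 2083 of them led away from the cut, as the DNA on the near side of a broken end does. The left end, toward Nfs1, supplied 1275 and the right end, with the body of Romo1, supplied 808. Of the 2083, 621 (29.8%) had lost no base, 915 (43.9%) had lost 1 to 10 bases, 456 (21.9%) had lost 11 to 50 and 91 (4.37%) had lost more, up to 494. The median loss was 2 bases from the right end and 2 from the left, and 5.82% of right ends and 3.45% of left ends had lost over 50 bases.

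The junctions concentrated on a few bases. Of 299 distinct pairs of position and strand, 36 recurred in 13 libraries or more and 149 were seen in 1 library. The most frequent was minus-strand position 156144267 with 191 junctions in 26 libraries, of which 140 rebuilt the AsiSI motif. Next came minus-strand positions 156144264 (171 junctions, 0 bases lost), 156144262 (162 junctions, 2 bases lost) and 156144263 (118 junctions, 1 base lost), all left ends. The most frequent right end was plus-strand position 156144259 with 134 junctions in 26 libraries, of which 88 rebuilt the motif. Plus-strand positions 156144265 (106 junctions, 2 bases lost) and 156144263 (90 junctions, 0 bases lost) followed. The restored motif made up 10.9% of right ends and 10.98% of left ends, and at each end single positions without it held more junctions.

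**Figure D3:**
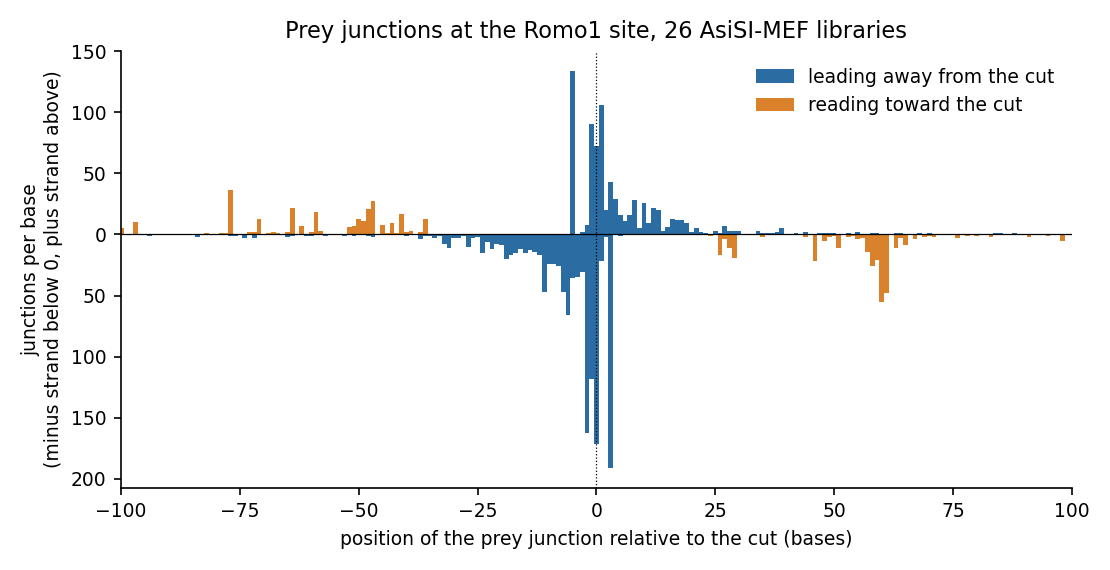
Junctions per base (vertical axis, plus strand above 0 and minus strand below) against the position of the prey junction relative to the cut in bases, over the 26 AsiSI-MEF libraries, from 100 bases left to 100 bases right of it. Junctions leading away from the cut (blue) peak close to it, highest at minus-strand position 156144267 and plus-strand position 156144259. From there they tail off to the left on the minus strand and to the right on the plus strand. Junctions reading toward the cut (orange) lie in clusters farther out.

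The left end of the Romo1 break was joined to the bait more often than the right end. A right-end join in the same chromosome copy removes the 142.873 Mb between the breaks, a left-end join inverts them, and joins between the 2 copies of chromosome 2 cannot be told apart from these in the reads. Among junctions leading away, the right end made up 41.8% ± 7.32 (SD, n = 13 control libraries), from 28.1% to 52.8% with a median of 39.9%. It was below 50% in 10 libraries and above in 1, with 2 at 50% (exact two-sided sign-flip test, p = 0.00293). In the 7 control libraries that did not choose the site it was 42.4%, below 50% in 6 and above in 0 (exact sign-flip test, p = 0.0312). Over all junctions the plus-strand share was 43.7% ± 4.58 (n = 13), below 50% in 12 of 13 (exact sign-flip test, p = 0.00049). When each position and strand was counted 1 time per library, the plus-strand share differed from 50% by -1.001 percentage points (exact sign-flip test, p = 0.351), which does not pass the threshold.

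Other AsiSI sites did not show this imbalance on average. Their right ends made up 51.7% of junctions leading away, Romo1 differed from them by -9.89 percentage points, and it was lower in 12 of 13 control libraries (exact sign-flip test, adjusted over 13 features p = 0.00119). Since deep sites differ from shallow ones, the 10 other sites with the most junctions were also taken. Their right ends made up 56.1%, and Romo1 was lower in 13 of 13 (exact sign-flip test, adjusted p = 0.00106). The difference from all other sites was 0.23 percentage points in run A, -14.5 in run B, -13.1 in run C, -15.2 in run D, -5.49 in run E and -5.52 in run F, so it was absent in the 2 libraries of run A. Among 123 sites compared over the pooled 13 control libraries, right-end shares ran from 5.80% to 95.7%, and Romo1 at 40.1% was rank 93 from the highest.

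The sites next to Romo1 in junction number on the bait chromosome in the 6 DMSO libraries that chose it, Nup214 (a nuclear pore protein) and Dnmt3b (a de novo DNA methyltransferase), differed from it and from each other. The right end made up 52.8% at Nup214, where Romo1 was lower in 11 of 13 control libraries (exact sign-flip test, adjusted p = 0.00555). At Dnmt3b it made up 78.3%, and Romo1 was lower in 13 of 13 (exact sign-flip test, adjusted p = 0.00106).

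The joins were next sorted by how bait and prey meet on the read. A blunt join has neither shared nor extra bases, an overlap has bases that could belong to either side (microhomology), and an insertion has bases between them that belong to neither alignment. Over the 2827 junctions, 23.5% were blunt, 42.6% had overlaps of 1 to 5 bases, 15.4% had overlaps of 6 bases or more and 18.5% had insertions. Among those leading away the most frequent join was blunt (31.1%), and 9.51% had insertions.

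Relative to all other AsiSI sites, Romo1 had more short overlaps and fewer long ones. In the 13 control libraries, overlaps of 1 to 5 bases made up 44.6% at Romo1 and 34.7% elsewhere (higher in 11 of 13, exact sign-flip test, adjusted p = 0.00159), and overlaps of 6 bases or more 16.6% and 34.2% (lower in 13 of 13, adjusted p = 0.00063). Against the 10 deepest other sites the difference was 2.88 percentage points for short overlaps (exact sign-flip test, adjusted p = 0.0321) and -1.51 for long ones (adjusted p = 0.0502, short of the threshold). For blunt joins the direction depended on the comparison, with a difference of 2.55 percentage points from all other sites (exact sign-flip test, adjusted p = 0.0476) and of -3.69 from the 10 deepest sites (adjusted p = 0.0104). The median base loss per library from the prey end averaged 2.77 bases at Romo1 over the 13 control libraries. This mean was above the 1.15 bases of all other sites (exact sign-flip test, adjusted p = 0.00091) and differed by -0.31 bases from the 10 deepest (adjusted p = 0.296).

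Junctions leading away that rebuilt the motif exactly were a minor class at Romo1. They numbered 228, of which 140 joined the left end and 88 the right. They were 8.86% ± 3.66 of the junctions in control libraries (n = 13) against 26.9% at all other sites (lower in 13 of 13, exact sign-flip test, adjusted p = 0.00063). Against the 10 deepest other sites, at 11.1%, the difference was -2.21 percentage points (lower in 10 of 13, exact sign-flip test, adjusted p = 0.00508). The denominator includes reads toward the cut, described below, which cannot count as restored. Those reads made up 26.8% of junctions at Romo1 and 16.4% at the 10 deepest sites. Restored joins at Nup214 made up 10.7% (adjusted p = 0.347) and at Dnmt3b 9.87% (adjusted p = 0.311).

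The restored share was lower at sites with more junctions. Over 123 sites in the control libraries the Spearman correlation between them was -0.79. It is given as a description because the sites share the same libraries and the denominator of the share. Within Romo1, over the 26 AsiSI-MEF libraries, restored junctions per library stayed between 3 and 16 (median 9) while all junctions at the site ranged from 9 to 308. The authors' pipeline removes reads that look like duplicates, and no more than 5 junctions of 1 library shared prey position, strand and bait end. Its part in the restored count was not tested.

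**Figure D4:**
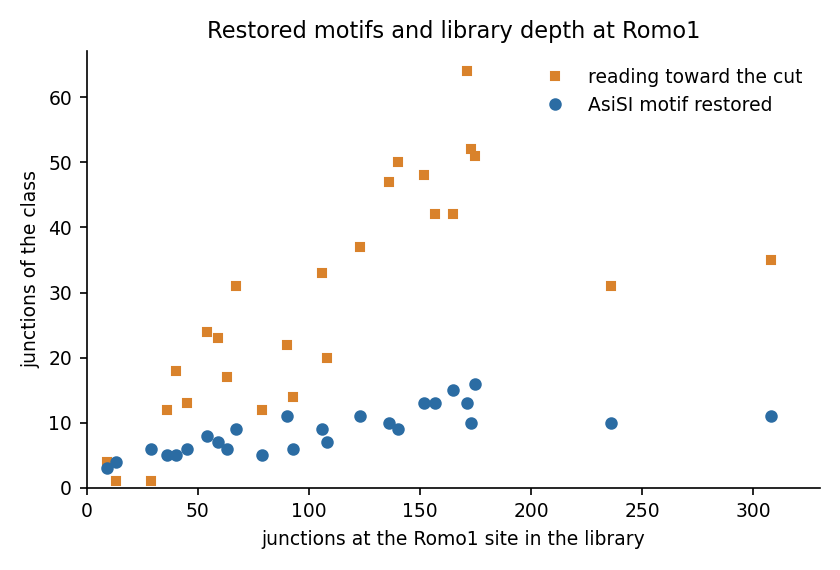
Junctions of 2 classes at the Romo1 site (vertical axis) against all junctions at the site (horizontal axis), 1 blue point and 1 orange square for each of the 26 AsiSI-MEF libraries. Junctions with a restored motif (blue) stay between 3 and 16 per library, and junctions reading toward the cut (orange) range from 1 to 64.

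The remaining 744 junctions at Romo1 read toward the cut instead of away from it. In these the prey alignment begins on one side of the break, more than 2 bases outside the motif, and runs back toward the cut. There were 384 on the plus strand, which lie left of the cut, and 360 on the minus strand, which lie right of it. In 607 of them (81.6%) the prey alignment ended at or before the far edge of the motif, and so did not run on past it. With both classes assigned to the side on which they lie, 1659 prey junctions were on the left and 1168 on the right.

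Reads toward the cut were a larger class at Romo1 than at most other sites. They made up 26.8% ± 9.92 of its junctions in the 13 control libraries, between 11.4% and 44.4%, against 15.7% at all other sites, and Romo1 was higher in 13 of 13 (exact sign-flip test, adjusted p = 0.00063). Against the 10 deepest other sites, at 16.4%, it was also higher in 13 of 13 (adjusted p = 0.00106). The difference from all other sites was between 6.03 and 21.6 percentage points in each of the 6 sequencing runs. Nup214 had 9.42% (Romo1 higher in 13 of 13, exact sign-flip test, adjusted p = 0.00317) and Dnmt3b had 34.0% (Romo1 lower in 11 of 13, adjusted p = 0.0182). The class was thus most frequent at Dnmt3b, intermediate at Romo1 and least frequent at Nup214 among these sites.

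Long insertions at Romo1 fell mostly in this class. Of 279 insertions of 10 bases or more, 263 (94.3%) were in reads toward the cut and 16 in reads leading away. At all other AsiSI sites 91.3% of 3286 such insertions were in reads toward the cut. The longest at Romo1 had 30 bases, and lengths of 20 bases (53 junctions), 15 bases (39) and 24 bases (26) were the most frequent in reads toward the cut. Of the 263, 208 (79.1%) matched the opposite strand of the prey within the site, at a median of 1 base from the motif, and 0 matched the prey's own strand. Inserted bases overall were found in 16.3% of Romo1 junctions in control libraries against 11.1% at all other sites (higher in 12 of 13, exact sign-flip test, adjusted p = 0.00091) and 13.99% at the 10 deepest (higher in 12 of 13, adjusted p = 0.0135). With the junctions leading away alone, the difference from all other sites was 1.59 percentage points (adjusted p = 0.0693).

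Many of these reads held a restored motif before they turned back. Of the 744, 185 (24.9%) contained one of the 2 restored sequences shown above, 82 with the right end and 103 with the left. Each of these reads therefore ran from the bait through a rebuilt motif into the first bases of 1 end of Romo1, and then continued in a prey alignment that points back to the cut. They are not among the 228 junctions counted as restored. In 21 of the 744 (2.82%) the bait sequence followed again on the opposite strand after the prey, which was seen in 0 of the 2083 junctions leading away. What produces this order of segments was not tested.

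**Figure D5:**
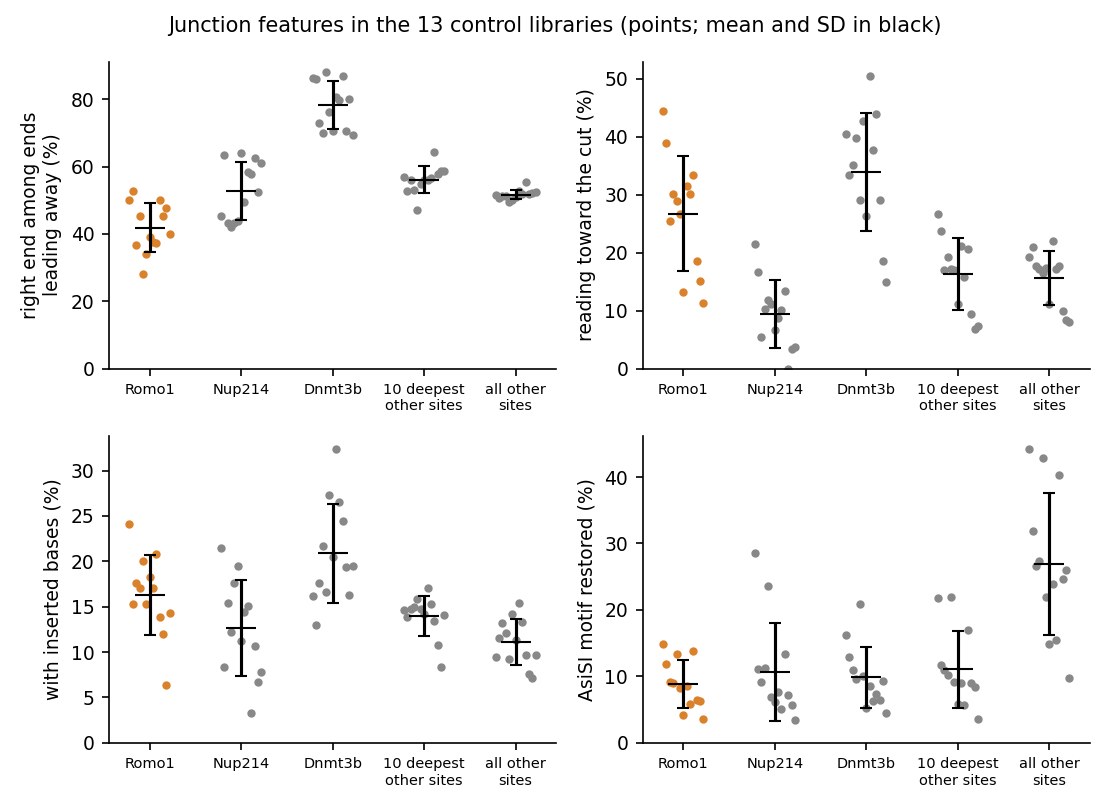
Right-end share among junctions leading away from the cut, share reading toward the cut, share with inserted bases and share with a restored AsiSI motif (percent, vertical axes) at Romo1, Nup214, Dnmt3b, the 10 other sites with most junctions and all other AsiSI sites; each point is 1 of 13 control libraries, and black lines give mean and SD. Romo1 (orange) has a mean right-end share of 41.8% against 56.1% at the 10 deepest other sites, and 26.8% of its junctions read toward the cut against 16.4% there.

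The kind of join at Romo1 was then compared between treatments. Under CK-666 none of 11 features passed the test over 6 pairs (exact two-sided sign-flip test, adjusted p = 0.875 for every feature, 0 of 11 also at an unadjusted p under 0.05). The right end made up 32.8% of junctions leading away with CK-666 and 41.1% with DMSO, lower in 5 of 6 pairs (p = 0.25 unadjusted, exact sign-flip test). Reads toward the cut were 37.3% of junctions in CK-666 libraries against 32.4% in their controls, with 4 pairs higher and 2 lower. Restored motifs made up 14.7% and 11.1%, and the SDs of 9.43 and 2.68 overlap widely. The CK-666 library of replicate 2 had 9 junctions at the site and therefore weighs on these means.

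Under NU7441, some of the 11 features lay on the same side of the control in all 3 pairs. The exact sign-flip test cannot go below p = 0.25 there, so an unchanged feature does this with a probability of 0.25. The plus-strand share, right-end share, blunt joins, short overlaps and insertions did not, each with 1 pair higher and 2 lower. Of the features given next, restored motifs are a part of the long overlaps. The median loss of bases from the prey end was 2, 0 and 3 bases with NU7441 and 3, 4 and 7 bases in the paired DMSO libraries. Overlaps of 6 bases or more made up 24.1%, 38.5% and 15.1% of junctions with NU7441 and 12.04%, 13.9% and 7.47% with DMSO, so the groups did not overlap. Restored motifs made up 20.7%, 30.8% and 6.45% with NU7441 and 6.48%, 6.33% and 3.57% with DMSO, and the lowest treated library lay within the control range. Each of the 3 gave p = 0.25 (exact sign-flip test, adjusted p = 0.688). The NU7441 libraries held 13 to 93 junctions at Romo1 and their controls 79 to 308, and restored joins per library varied less than all joins at the site, so depth and NU7441 cannot be told apart here. Reads toward the cut made up 3.45%, 7.69% and 15.1% with NU7441 and 18.5%, 15.2% and 11.4% with DMSO, lower in 2 of 3 pairs.

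The 2-pair experiments give values only. With wiskostatin, reads toward the cut made up 31.1% and 37.4% against 13.1% and 31.6% with DMSO, and blunt joins 16.0% and 20.5% against 27.5% and 26.3%. The blunt shares of the groups did not overlap and the shares of reads toward the cut did, but 2 pairs are too few to test either. Prey ends within 10 bases, long overlaps and insertions were also higher in 2 of 2 pairs. Plus-strand share, right-end share, short overlaps and restored motifs were higher in 1 pair and lower in 1. With actin R62D-NLS, blunt joins made up 22.1% and 20.6% against 24.3% and 22.2% with empty vector, lower in 2 of 2 pairs, and the right end made up 41.1% and 34.8% against 37.2% and 50%, in opposite directions.

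The Cas9 libraries, whose cells have no AsiSI according to the methods, gave few junctions at the site. The Romo1 window held 13, 1 and 4 junctions with CK-666 and 3, 2 and 1 with DMSO, which is 0.275%, 0.0246% and 0.157% against 0.118%, 0.0634% and 0.0421%. A count of 0 would allow a share of up to 0.0634% to 0.126% at these depths, with intervals and limits covering counting error only. This limit corresponds to 3 junctions, which the counts of 13 and 4 exceed, and it does not test an observed count. All 24 lay within 50 bp of the cut, 17 lay within 3 bases of an end as AsiSI leaves it, and 12 held the restored AsiSI motif. At all AsiSI sites together the Cas9 libraries held 659 junctions, 359 of them with a restored motif. These libraries came from the sequencing run of the wiskostatin pair of replicate 2, which are AsiSI-MEF libraries; what this run contributed was not tested. The Romo1 share in AsiSI-MEFs, 2.82% ± 0.890 (SD, n = 26), stands against a mean of 0.113% ± 0.0932 (n = 6) in the Cas9 libraries. As 12 of their 24 junctions held the restored motif, this mean is not a level free of such joins.

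The site whose share followed that of Romo1 most closely over the 26 AsiSI-MEF libraries was the one at Mex3a on chromosome 3, an RNA-binding protein (Pearson r = 0.89 between log2 shares), followed by those at 2410002F23Rik on chromosome 7 (r = 0.84) and at Cntln, a centrosomal protein, on chromosome 4 (r = 0.82). The median over 87 other sites was 0.31 and the range -0.41 to 0.89. Dnmt3b, on the same chromosome, gave 0.69 and Nup214 gave 0.05. The libraries share runs and differ in depth, so these are descriptions of how the shares vary together.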

How the data were processed

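The deposited HTGTS tables hold 1 library each without pooling, and their columns are read and genome positions of bait and prey with strands, neither counts nor normalised values. The authors aligned reads to mm10 (also the build per the labels) with the Burrows-Wheeler Aligner and kept junctions with their HTGTS pipeline, which removes duplicates; versions are not given in the sources used here. Groups and replicate numbers came from the labels, and the AsiSI-MEF and Cas9 cells from the study's methods. The 12 Hi-C samples of the 44 were not analysed here.

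Motifs were found in the mm10 reference, and shares were computed over junctions over 10 kb from the bait. Overlap is the number of read bases that bait and prey alignments share, counted as long from 6 bases. End loss counts bases missing from the prey end as AsiSI leaves it. A restored junction has an overlap of 8 bases or more that spans the bait motif and a prey start at the motif. Treatments were tested with limma 3.58.1 (voom, R 4.3.3) over the 274 AsiSI sites with at least 20 junctions in the 26 AsiSI-MEF libraries, the 13 treated and control pairs as blocks. The sources used here do not state a pairing, so values without blocks are given where the call changes. Pairs of the same replicate number shared a run, and their deviations correlated by 0.08, 0.22, 0.24, -0.01, 0.21 and 0.25 in the CK-666 experiment and by 0.12 to 0.52 in the NU7441 experiment (88 sites). Features were tested with exact two-sided sign-flip tests over libraries, against other sites with at least 10 Romo1 junctions per library and between treatments with all pairs (scipy 1.17.1, Python 3.11.15), with Benjamini-Hochberg adjustment. Intervals are 95% Wilson intervals, and 3 junctions set the limit that a count of 0 allows. The tests were checked on simulated data. Named sites are Romo1, the 2 sites of chromosome 2 next to it in junction number over the 6 DMSO libraries of the CK-666 experiment, the 3 sites most like it over libraries and the annotated genes within 20 kb. The site and these lists were chosen with earlier results of these data known. Alternatives changed the window, the denominator, repeated positions, weights, filter, blocks and libraries; the 10 deepest other sites, junctions leading away alone, the tests against 50% and the rank and Cas9 alternatives were chosen after seeing the data. The authors' normalisation of junction numbers to bait-only sequences was not used here.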

Additional observations from a re-analysis of the deposited data

Results flagged for a closer look

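A check of each group of 6 libraries for a single library far from the others singled out 4 of 28 groups of values, and chance alone singles out about 1 in 20. The DMSO library of replicate 1 in the CK-666 experiment had the highest Romo1 share, 4.77% against 3.16% in the next. The CK-666 library of replicate 2, with 9 junctions at the site, accounted for the other three. Overlaps of 1 to 5 bases made up 66.7% of its junctions against 41.1% in the next library, insertions 0% against 21.1%, and restored motifs 33.3% against 13.4%.

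In cells that have no AsiSI according to the methods, the window at Romo1 held 13 junctions (0.275%) in the Cas9 library with CK-666 of replicate 1 and 4 junctions (0.157%) in that of replicate 3. Both exceed the 3 junctions that set the limit of a count of 0, which does not test an observed count.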

How the results depend on the processing

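The log2 fold change of the Romo1 share under NU7441 (-0.75, adjusted p = 0.0465, 30 sites called) stayed below 0 in every alternative, but its call was lost in 8: without the replicate block (-0.79, adjusted p = 0.113, 4 sites called), within 50 bp (-0.64, adjusted p = 0.0701, 32 sites), with each position counted 1 time (-0.52, adjusted p = 0.260, 18 sites), by limma without voom weights at a pseudocount of 0.5 (-0.85, adjusted p = 0.0502, 9 sites) or 2 (-0.79, adjusted p = 0.0567, 6 sites), with filters of 1 junction (-0.74, adjusted p = 0.0760, 17 sites) or 100 (-0.76, adjusted p = 0.0689, 11 sites), and with its own 6 libraries alone (-0.87, adjusted p = 0.101, 17 sites). It was kept within 2 kb and with 2 other denominators (adjusted p from 0.00514 to 0.0458, 34, 35 and 49 sites called). Leaving out 1 pair gave -1.10 to -0.40 (limma voom, adjusted p from 0.0493 to 0.170, 4 to 54 sites), and the call was lost in 2 of these fits. The cause of these differences was not tested. The CK-666 change, near 0 throughout, was -0.0046 within 50 bp, and -0.063 to 0.13 without single pairs. The replicate block changed no other call of a site share. The rank over the 20 other libraries was 2 within 50 bp.

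Against the other AsiSI sites, 6 of 132 alternatives other than leaving out a library turned the direction. Blunt joins gave -2.09 percentage points with each position counted 1 time, -1.07 against chromosome 2 sites and -3.69 against the 10 deepest sites. Prey ends within 10 bases gave 0.30 and 3.00 in the latter 2, and the median end loss -0.31 bases against the 10 deepest. These no longer passed the test: plus-strand share (-1.49) and repeated positions (0) with each position counted 1 time, plus-strand share against 50% (-1.001) in the same setting, end loss (0.46 bases) and bait loss (0.31 bases) against chromosome 2, long overlaps (-1.51) and bait loss (0.077 bases) against the 10 deepest, and insertions (1.59) among junctions leading away. Over the 6 choosing libraries, where the smallest adjusted p is 0.0580, the differences were -7.73 for plus strand, 0.92 bases for end loss, -3.95 for ends within 10 bases, 1.79 for blunt joins, 10.97 and -19.3 for short and long overlaps, 6.59 for insertions, 0.67 bases for bait loss and 19.8 for repeated positions. Over the 7 other control libraries they were 3.204 for blunt joins, 8.88 for short overlaps and 0.86 bases for bait loss. Leaving out 1 library gave 2.10 to 3.34 for blunt joins, which lost the call 10 times.

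Features under treatment never passed the test. Within 50 bp, reads toward the cut under NU7441 gave 1.53, and with each position counted 1 time blunt joins gave 3.203 and insertions 4.16. Without single pairs, CK-666 gave -6.06 to 0.34 for short overlaps, -0.50 to 0.10 bases for end loss, -0.74 to 5.49 for ends within 10 bases, -2.78 to 1.46 for blunt joins and -0.75 to 1.76 for long overlaps, and NU7441 -9.80 to 5.34 for blunt joins and -4.01 to 2.23 for insertions. Depth at the site, 9 to 308 junctions per library, limits these shares.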

Other observations

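The difference between Romo1 and all other AsiSI sites kept its sign in each of 6 sequencing runs for the plus-strand share (-9.79 to -3.27 percentage points), the restored share (-26.5 to -8.86), reads toward the cut (6.03 to 21.6) and insertions (1.70 to 9.15). Runs D and E held 1 control library each, so no spread can be given within them. Among 123 AsiSI sites over the pooled 13 control libraries, Romo1 was rank 21 from the highest in reads toward the cut (23.1%, median of sites 11.7%). It was rank 21 in insertions (16.3%, median 9.40%), rank 120 in overlaps of 6 bases or more (13.9%, median 25.7%) and rank 116 in restored motifs (7.14%, median 19.0%).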
